A study of Vulpes lagopus with 12 samples.

Results

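Complement is a set of plasma proteins and receptors that marks microbes and damaged cells for removal. Activation starts by a classical, a lectin or an alternative route, and each route leads to cleavage of C3 and then of C5; the fragments C3a and C5a call in and activate leukocytes through their receptors. Most plasma complement proteins are made by liver cells, whereas properdin, the C1q chains and the fragment receptors are made by blood cells and macrophages, and factor D comes largely from fat cells and also from myeloid cells.

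The expression of 9 complement genes was followed in blood RNA of Arctic foxes (Vulpes lagopus) on Affymetrix Canine Genome 2.0 arrays, which carry probes for dog transcripts. The genes were the factors CFD, CFP, C3, C5 and CFB, the C1q chains C1QA and C1QB, and the receptors C3AR1 and C5AR1. Of these, 8 had at least 1 probe set (a group of probes read out together) annotated with that gene symbol alone, 19 probe sets in all out of 42924; CFB had none. The series holds 12 arrays: 11 labelled as Arctic fox blood and 1 that its title names as the canine control. The design statement says the fox samples were examined for polychlorinated biphenyls (PCBs) and mercury, but the labels give no exposure, age or sex for a fox and no batch, so the foxes form 1 group, numbered 1 to 11 in the order of the series. The organism and tissue labels of the control array also read Vulpes lagopus and blood, and the animal behind it is unknown here. The labels do not say that the 11 samples came from 11 animals, so the spread between them may be partly technical.

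Values are on a log2 scale, so a difference of 1 is a doubling. A gene was read from its probe set with the highest mean over the 12 arrays, and every probe set of the 8 measured members is given. Levels are compared between arrays for 1 probe set, never between probe sets. The foxes were compared with the control array by limma, a linear model fitted over all probe sets, with Benjamini-Hochberg adjusted p-values and a threshold of 0.05. Differences are fox mean minus control. With 1 control array its spread was taken from that of the foxes, so the comparison describes that array rather than a species. The median difference over all probe sets was 0.46, so a difference near 0.46 is that of the typical probe set. The table has no detection call. The 311 olfactory receptor genes, which blood is not known to use, had fox means between 4.76 and 8.95 (5th to 95th percentile) and control values between 4.15 and 7.90, so a value in that range does not by itself show that a gene was expressed.

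The arrays differed in ways that touch the results. Foxes 9, 10 and 11 lay outside foxes 1 to 8 on 2 of 5 quality controls that set the 3' end of a transcript against its middle. On 1 control set the GAPDH difference lay between 0.42 and 1.08 in them and between 2.56 and 3.19 in foxes 1 to 8, and the actin difference between 0.16 and 0.26 in them and between 2.14 and 5.21 in foxes 1 to 8. The second control set for the same transcripts did not separate them, with -0.96 to -0.60 against -0.77 to -0.28 for GAPDH and 4.40 to 5.11 against 3.84 to 5.78 for actin, and neither did EF1a, with 3.06 to 3.73 against 2.41 to 3.43. The control array read -0.08 for GAPDH, 1.32 for GAPDH on the second set and 1.99 for EF1a, outside all foxes. Its actin differences, 2.54 and 4.43, lay inside the range of the foxes. Its array median was 6.85, below that of every fox (7.06 to 7.17). Monocyte and T cell markers had higher means in foxes 9, 10 and 11 than in foxes 1 to 8, and neutrophil markers overlapped. The mean over 5 monocyte markers was 10.03 to 10.37 in them, against 9.04 to 9.64 in foxes 1 to 8, with 3 of the 5 above all of those foxes. The mean over 4 T cell markers was 9.41 to 9.76 in them, against 8.56 to 9.26, with 2 of the 4 above, and the leukocyte marker PTPRC was 12.04 to 13.15, against 9.22 to 12.03. For the 5 neutrophil markers the mean was 11.31 to 12.76 in them, against 10.08 to 11.89, with 1 of the 5 above. Of all genes, 14.2% had foxes 9, 10 and 11 above all of foxes 1 to 8. The control array, labelled blood, was low in neutrophil and monocyte markers and high in liver ones. The mean over 5 neutrophil markers was 10.08 to 12.76 in the 11 foxes, against 7.03 on the control. The mean over 9 hepatocyte markers was 7.25 to 7.63 in the foxes, against 13.22 on the control, and 7 of the 9 were lower in the foxes, 0 higher and 2 not called. The 4 red cell markers did not run one way: ALAS2, EPB42 and SLC4A1 were higher in the foxes, by 6.66, 1.08 and 0.70, and HEMGN was lower by 3.32. The control fell inside the range of the foxes for the T cell mean, at 8.91. It lay below all foxes for the monocyte mean, at 8.12, and for PTPRC, at 8.35. Of the 5 monocyte markers 4 lay below all foxes on the control, against 56.1% of all genes. The mean over 6 fat cell markers was 9.42 on the control, above the 6.77 to 7.42 of the foxes. On the control 3 of the 6 lay above all foxes and 2 below, against 21.7% and 56.1% of all genes. In bulk blood, fewer cells of a type and less RNA per cell cannot be told apart.

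Factor D (CFD) is the serine protease that cleaves factor B and so starts the alternative route. Its single probe set read 13.56, 13.71 and 12.86 in foxes 9, 10 and 11. In foxes 1 to 8 it read 9.27, 9.75, 9.33, 9.18, 9.50, 8.91, 9.83 and 10.17, and on the control 9.01. Foxes 9, 10 and 11 lay above all other foxes, as they did for 14.2% of all genes, and the control lay inside foxes 1 to 8. Its SD over the 11 foxes was 1.86, higher than that of 99.9% of 15115 genes, and its SD over foxes 1 to 8 was 0.40, higher than that of 85.8% of genes. Fox blood minus control was 1.54 (SE 1.75, adjusted p by limma 0.454), and without foxes 9, 10 and 11 it was 0.48 (adjusted p by limma 0.257), so CFD was not called either way. Factor D is known as a product of fat cells. Of 6 fat cell markers, 2 were higher in the foxes, 3 lower and 1 not called. Over all genes 44.6% were higher and 18.5% lower. The differences of the 6 markers ran from -9.65 in FABP4 to 1.04 in PLIN1. ADIPOQ, the adiponectin gene, read 8.95 to 12.12 in the foxes, against 11.13 on the control. In foxes 9, 10 and 11 the mean over the 6 was 6.77 to 6.98, against 7.17 to 7.42 in foxes 1 to 8. Most of this came from ADIPOQ, which averaged 9.53 in foxes 9, 10 and 11 and 11.63 in foxes 1 to 8, a difference of -2.09. The other markers differed by -0.30 (LEP) to 0.01 (PLIN1). For 0 of the 6 did foxes 9, 10 and 11 all lie below, or all above, foxes 1 to 8. The part of the leukocyte markers or of the 3' to middle differences in the CFD values was not tested.

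Properdin (CFP), released by neutrophils, monocytes and T cells, is the only known positive regulator of the alternative route and stabilises its C3 convertase. The probe set read for the gene ran from 8.66 in fox 6 over a median of 9.03 to 9.60 in fox 9, against 8.28 on the control, which lay below all foxes. The difference was 0.78 (SE 0.26, adjusted p by limma 0.0226), a rise in the foxes only slightly above that of the typical probe set. With each array centred on its median it was 0.51 and no longer called (adjusted p by limma 0.139, from 0.00136 to 0.139 over the settings tried), and with the mean of both probe sets it was 1.42 and not called (adjusted p by limma 0.0852). The second probe set spread more. It read 11.16, 10.98 and 9.67 in foxes 9, 10 and 11 and between 7.53 and 8.70 in foxes 1 to 8, against 6.79 on the control. Here foxes 9, 10 and 11 lay above all others, as for CFD and for 12.6% of all probe sets, while the first probe set overlapped. The difference from the control on the second probe set was 2.06 (SE 1.16, adjusted p by limma 0.138), and 1.41 without foxes 9, 10 and 11 (adjusted p by limma 0.00711). Over foxes 1 to 8 the relation between both CFP probe sets did not pass the adjustment (Pearson's r 0.71, exact permutation p 0.0462, adjusted 0.444 over 24 pairs of probe sets of 1 gene; Spearman's rho 0.81, exact permutation p 0.0218, adjusted 0.261; r 0.78 without the 2 foxes farthest from the median).

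**Figure D1:**
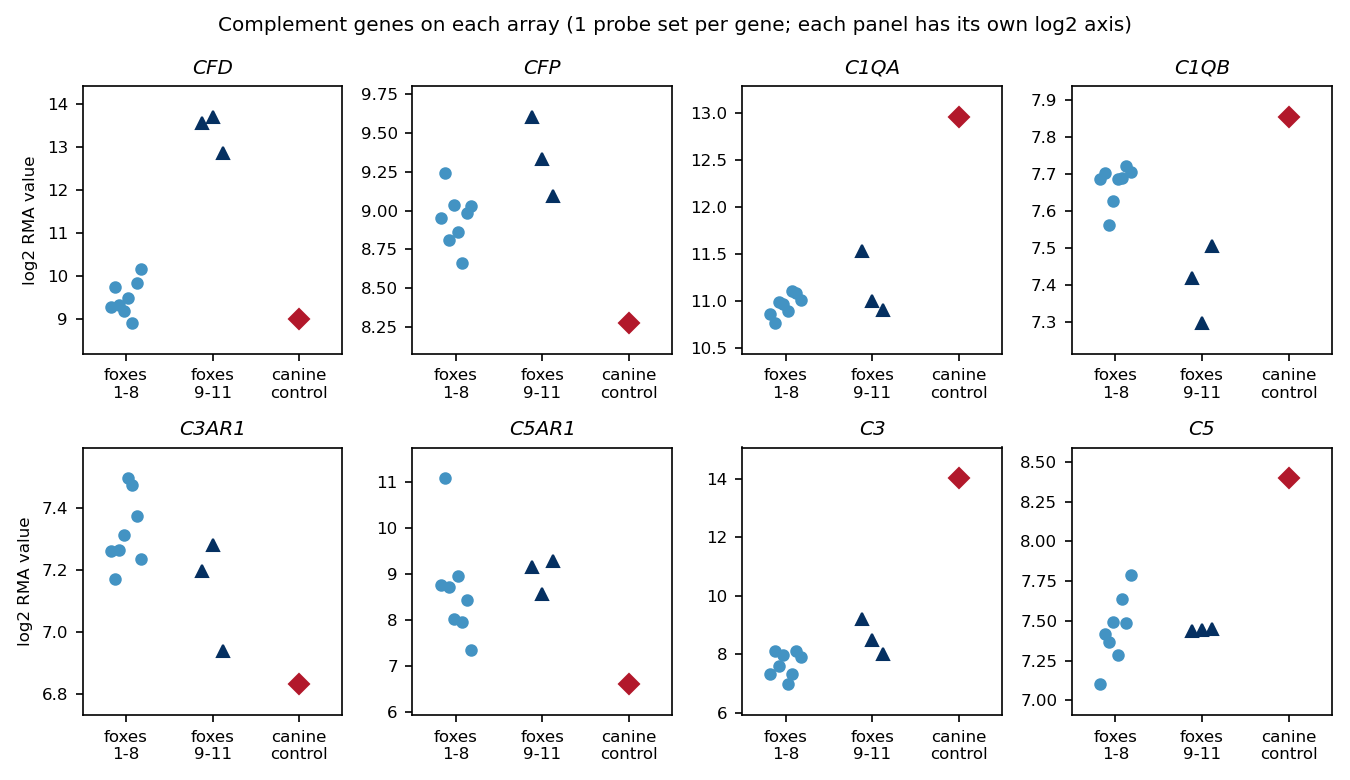
Log2 values (vertical axes, a separate scale per panel) of the 8 measured complement genes, each from 1 probe set; circles are foxes 1 to 8, triangles foxes 9 to 11 and the diamond the canine control. CFD stands at 12.86 or above in foxes 9 to 11 and at 10.17 or below elsewhere, and C3 stands at 14.02 on the control, above all foxes.

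C1q opens the classical route by binding antibody on a target; it is built from the chains encoded by C1QA, C1QB and C1QC, and outside blood it is a product of tissue macrophages. C1QA fell in the foxes on both of its probe sets. On the probe set read for the gene the foxes ran from 10.77 in fox 2 over a median of 10.99 to 11.53 in fox 9, against 12.96 on the control. The difference was -1.95 (SE 0.21, adjusted p by limma 9.02e-06). On the second the foxes ran from 7.23 to 7.83 around a median of 7.60, against 9.60 on the control, a difference of -2.04 (SE 0.19, adjusted p by limma 1.97e-06). Neither probe set overlapped with the control. After quantile normalization was applied again, the difference on the first was -0.80 and it was not called (adjusted p by limma 0.207, from 2.83e-07 to 0.207 over the settings tried).

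C1QB was the most even of the measured genes. It ran from 7.56 to 7.72 in foxes 1 to 8, an SD of 0.05 that was lower than that of all but 0.331% of genes. Foxes 9, 10 and 11 read 7.42, 7.30 and 7.50, all below the other foxes, and the control read 7.85, above all foxes. The foxes and the control lay in the range of the olfactory receptor genes, so the evenness may be that of a gene not expressed. The difference from the control was -0.25 (SE 0.16, adjusted p by limma 0.182). With arrays centred on their medians it was -0.52 and was called (adjusted p by limma 0.01, from 0.01 to 0.212 over the settings tried). C1QC, named here after its values were seen because it completes C1q, ran from 7.09 to 7.84 in the foxes against 8.48 on the control, a difference of -0.93 (SE 0.22, adjusted p by limma 0.00391). Of 8 tissue macrophage markers, measured beside the C1q chains, 2 were higher in the foxes, 2 lower and 4 not called. Over all genes 44.6% were higher and 18.5% lower. The mean over the 8 macrophage markers was 6.98 to 7.22 in the foxes and 7.35 on the control, and their part in the C1QA difference was not tested.

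C3AR1 encodes the receptor of C3a on myeloid cells. On its single probe set the foxes ran from 6.94 in fox 11 over a median of 7.26 to 7.49 in fox 5, against 6.83 on the control. The difference of 0.44 (SE 0.17, adjusted p by limma 0.0396) passed the test but was no larger than the median over all probe sets, and both groups lay in the range of the olfactory receptor genes. Centred on array medians it was 0.17 and not called (adjusted p by limma 0.393, from 0.0121 to 0.394 over the settings tried). The call was also lost without any 1 of foxes 3, 4, 7 and 8 (0.43 to 0.45, adjusted p by limma from 0.0505 to 0.0541).

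C5AR1 encodes the receptor of C5a, abundant on neutrophils and monocytes, and its 2 probe sets gave different pictures of the foxes. On the first, read for the gene, fox 2 stood at 11.07, while the remaining foxes ran from 7.36 in fox 8 to 9.28 in fox 11. The control read 6.61, below all foxes. On the second foxes 9 and 10 stood at 11.53 and 11.41 and fox 11 at 8.74, above foxes 1 to 8 at 7.77 to 8.42, where fox 2 read 8.03. The control again lay below, at 6.90. Over foxes 1 to 8 the 2 probe sets showed no relation that passed the test (Pearson's r -0.21, exact permutation p 0.519, adjusted 0.867; Spearman's rho -0.05, exact permutation p 0.935, adjusted 0.935; r -0.20 without the 2 foxes farthest from the median).

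C5AR1 differed from the control by 2.14 on the first probe set (SE 0.90, adjusted p by limma 0.0554) and by 1.76 on the second (SE 1.34, adjusted p by limma 0.266). Neither was called. Without fox 2 the first was called (1.91, adjusted p by limma 0.0134), and without fox 8 also (2.28, adjusted p by limma 0.0343). The range over the settings tried was 0.0134 to 0.108. Without foxes 9, 10 and 11 the second was called (1.04, adjusted p by limma 0.00175) and the first was not (2.05, adjusted p by limma 0.0812). On the control the 5 neutrophil markers also lay below all foxes, as did 56.1% of all genes. In the foxes 4 of the 5 were called higher and 1 was not called, against 44.6% higher of all genes. The part of the neutrophil markers in the C5AR1 values was not tested.

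**Figure D2:**
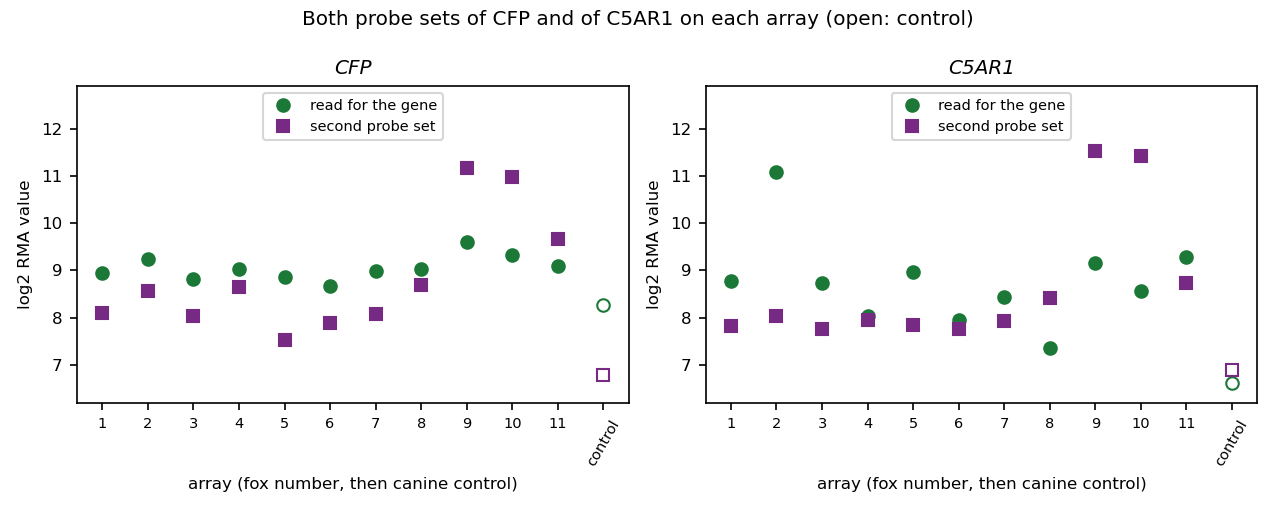
Log2 values (vertical axis) of both probe sets of CFP and of C5AR1 on each array (horizontal axis, fox number and then the canine control, drawn open). On the second probe set foxes 9, 10 and 11 lie above foxes 1 to 8 for both genes, whereas on the first C5AR1 probe set fox 2 stands alone at 11.07.

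C3, the protein on which all routes meet, is made mainly by liver cells and in part by myeloid cells. On the probe set read for the gene, foxes 9, 10 and 11 read 9.22, 8.48 and 8.02. Foxes 1 to 8 read 7.34, 8.12, 7.60, 7.96, 6.98, 7.33, 8.10 and 7.91, and the control 14.02. The difference was -6.11 (SE 0.58, adjusted p by limma 3.15e-06). The foxes overlapped among themselves, with an SD of 0.61 over 11 and of 0.42 over foxes 1 to 8, and all lay far below the control. The fox mean of 7.92 lay in the range of the olfactory receptor genes.

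The 6 probe sets of C3 did not tell the same story. One ran from 5.91 to 7.05 in the foxes against 12.40 on the control, a difference of -6.03 (SE 0.32, adjusted p by limma 9.85e-09). A further 2 differed by -2.28 (10.14 on the control) and by -1.87 (8.80 on the control), and both were called. The remaining 2 showed no fall. One of them, the probe set with a fox mean of 6.70, ran from 6.41 to 6.84 in the foxes against 6.80 on the control, a difference of -0.11 (SE 0.17, adjusted p by limma 0.583). The other ran from 7.01 to 7.53 in the foxes against 6.72 on the control, a difference of 0.45 (SE 0.16, adjusted p by limma 0.0291) close to the median over all probe sets. In all, 4 of 6 fell in the foxes, 1 rose and 1 was not called. With the mean of all its probe sets C3 differed by -2.66. Over foxes 1 to 8 the closest pair was the probe set read for the gene and the one with a fox mean of 6.70 (Pearson's r 0.82, exact permutation p 0.00335, adjusted 0.0804; Spearman's rho 0.93, exact permutation p 0.00223, adjusted 0.0536; r 0.87 without the 2 foxes farthest from the median), which did not pass the adjustment.

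C5, the protein cleaved into C5a and the fragment that seeds the membrane attack complex, fell on 2 of its 4 probe sets. On the probe set read for the gene, the foxes ran from 7.10 in fox 1 over a median of 7.44 to 7.79 in fox 8, against 8.40 on the control, a difference of -0.95 (SE 0.19, adjusted p by limma 0.00129). On the other they ran from 4.21 to 4.64, against 6.54 on the control, a difference of -2.14 (SE 0.15, adjusted p by limma 1.38e-07). The control lay above all foxes on both. The remaining 2 probe sets differed by -0.30 and -0.33 and were not called (adjusted p by limma 0.187 and 0.305). Foxes 9, 10 and 11 lay at 7.43 to 7.45 on the first probe set, in the middle of foxes 1 to 8. Of all probe sets, 18.9% were lower in the foxes. The fox values on all 4 C5 probe sets lay in or below the range of the olfactory receptor genes. They do not by themselves show that C5 was expressed in the foxes.

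**Figure D3:**
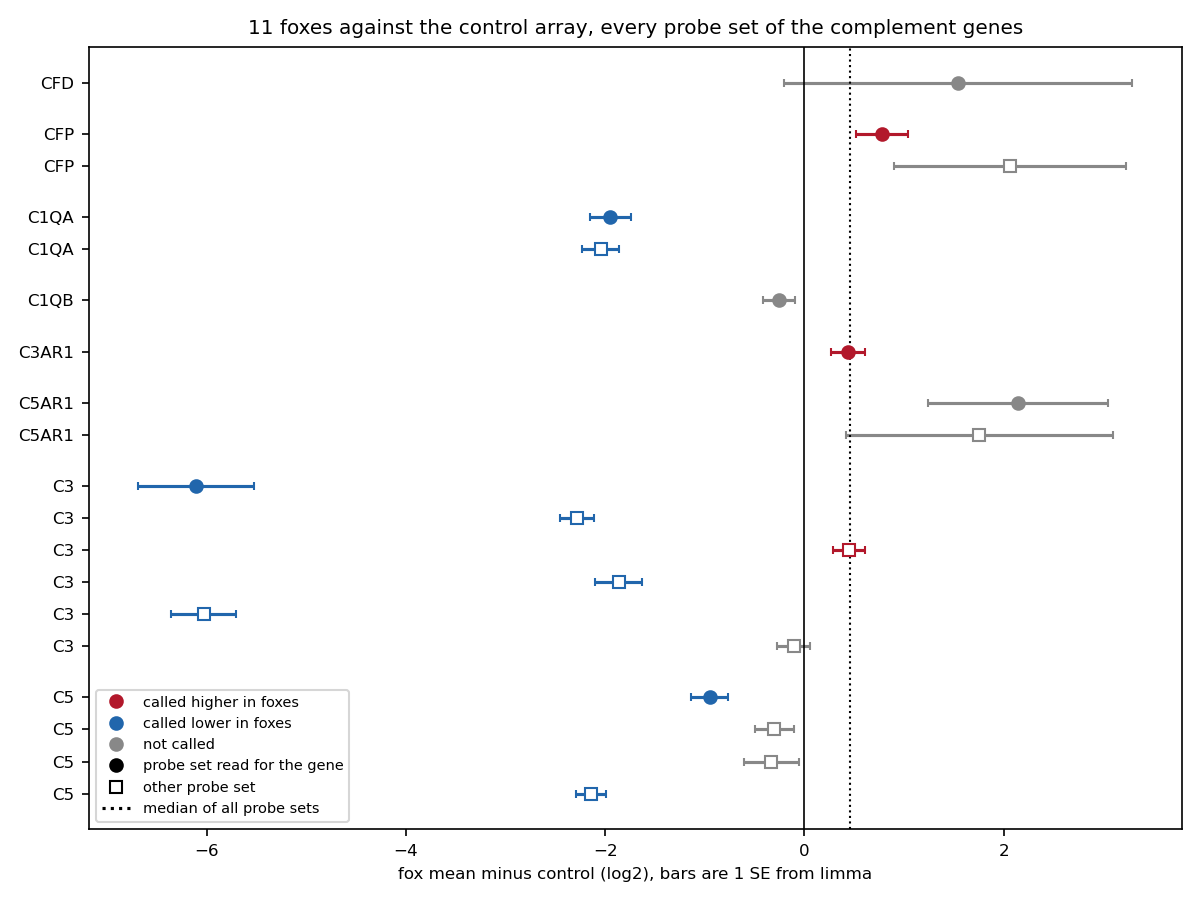
Fox mean minus control in log2 units (horizontal axis) for all 19 probe sets of the 8 measured genes, with bars of 1 SE from limma; filled circles are the probe sets read for a gene, open squares the others, and the dotted line is the median of all probe sets at 0.46. Of the 6 C3 probe sets 4 are called lower, 2 of them at -6.11 and -6.03, while CFP and C5AR1 lie on the right with wide bars on their variable probe sets.

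Set side by side, both measured liver-made genes fell in the foxes and the genes made outside the liver went both ways. Of the 8 genes, 3 were lower in the foxes (C3, C5 and C1QA), 2 higher (CFP and C3AR1) and 3 not called (CFD, C1QB and C5AR1). Over all 15115 genes 18.5% were lower and 44.6% higher. The liver-made C3 and C5 differed by -6.11 and -0.95. Their median was -3.53, that of the 6 genes made outside the liver 0.61, and that of all genes 0.53. Where a gene's probe sets were averaged, the medians were -1.80 and 0.93, and with centred arrays the median outside the liver was 0.34. Without CFD, whose main source is fat, the median of the remaining 5 was 0.44. Of 9 hepatocyte markers 7 were lower in the foxes, against 18.5% of all genes, and their part in the C3 and C5 differences was not tested. With each array centred on its median the split was 4 lower and 0 higher, and after quantile normalization again it was 2 lower and 1 higher. By probe set 8 of 19 were lower, 3 higher and 8 not called, against 18.9% lower and 42.1% higher of all probe sets. Without foxes 9, 10 and 11 the genes again stood at 3 lower and 2 higher, against 22.9% lower and 51.6% higher of all genes. The probe sets then stood at 8 lower and 5 higher, against 22.9% lower and 49.1% higher of all probe sets. The control lay above all foxes for 4 genes and below all for 3, against 21.7% and 56.1% of all genes. By probe set it lay above all foxes in 10 of 19 and below all in 6, against 21.9% and 55.1% of all probe sets.

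Among the foxes themselves, 3 of the 8 genes (CFD, C5AR1 and C3) had an SD of at least 0.5, against 18.3% of all genes. Within foxes 1 to 8 only C5AR1 did, at 1.11, against 9.61% of all genes, with fox 2 the highest. By probe set this was 5 of 19 over all foxes, against 14.8% of all probe sets. The SD of the other 5 over 11 foxes ran from 0.14 in C1QB to 0.26 in CFP, beside a median of 0.23 over all genes. Foxes 9, 10 and 11 all lay above foxes 1 to 8 for 1 gene (CFD) and all below for 1 (C1QB), against 14.2% and 14.6% of all genes. By probe set this was 3 of 19 above (CFD and the second probe sets of CFP and C5AR1) and 1 below, against 12.6% and 14.6% of all probe sets.

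Whether the measured genes moved together was examined over foxes 1 to 8. Foxes 9, 10 and 11 were known from earlier results of these data to stand apart on quality controls, so the 11 foxes were not pooled. None of the 28 pairs passed an adjusted p of 0.05; by Pearson's r 3 had an unadjusted exact permutation p under 0.05. These were C1QA with C5AR1 (Pearson's r -0.79, exact permutation p 0.0145, adjusted 0.405; Spearman's rho -0.81, exact permutation p 0.0218, adjusted 0.203), and r was -0.48 without the 2 foxes farthest from the median of C1QA. The next was CFP with C3 (Pearson's r 0.70, exact permutation p 0.0465, adjusted 0.434; Spearman's rho 0.81, exact permutation p 0.0218, adjusted 0.203), and r was 0.66 without the 2 farthest foxes. The last was CFP with C3AR1 (Pearson's r -0.73, exact permutation p 0.0405, adjusted 0.434; Spearman's rho -0.62, exact permutation p 0.115, adjusted 0.529), and r was -0.31 without the 2 farthest foxes. By Spearman's rho C5 with C5AR1 also did (rho -0.83, exact permutation p 0.0154, adjusted 0.203; Pearson's r -0.47, exact permutation p 0.239, adjusted 0.571), and r was -0.41 without the 2 farthest foxes. The 28 values of r ran from -0.79 to 0.70 around a median of 0.10, and 18 were positive.

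The genes whose pattern was most like that of the 4 most variable members were read over foxes 1 to 8 among genes with an SD of at least 0.5 there, as a description over 8 arrays. For C5AR1 these were KLK4 (r 0.93), NUTF2 (0.92) and TMCC2 (0.91), each highest in fox 2, at 12.36, 14.01 and 9.21. Without the 2 foxes farthest from the C5AR1 median, r was 0.77, 0.49 and 0.64. For C3 they were HMGN1 (r 0.97), PCYOX1 (0.96) and IDH2 (0.96), each lowest in fox 5, as C3 was, with r of 0.93 to 0.96 without the 2 farthest foxes. For CFD they were PIP4K2A (0.89), the proteasome subunit PSMB9 (0.83) and SEPTIN4 (0.83). Their values in foxes 9, 10 and 11 were 10.35 to 11.13, 12.23 to 13.38 and 8.47 to 9.35. Without the 2 foxes farthest from the CFD median, r was 0.80, 0.64 and 0.91. For C5 they were RALGAPA2 (0.93), the transcription factor STAT3 (0.93) and THAP1 (0.92), each lowest in fox 1 and highest in fox 8, as C5 was. Without the 2 foxes farthest from the C5 median, r was 0.75, 0.74 and 0.92. The SD of C5 over foxes 1 to 8 was 0.21, higher than that of 56.5% of genes. Over those foxes the C5 probe set used here had r of -0.63, 0.28 and 0.25 with the other C5 probe sets, none passing the adjustment. Each member was compared with 1404 or 1405 genes.

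The rest of the pathway was read from a list of 40 further complement genes, of which 27 had a probe set. In the foxes 14 were lower, 6 higher and 7 not called, against 18.5% lower and 44.6% higher of all genes, with a median of -0.76 against 0.53. After quantile normalization again 12 were lower and 3 higher. Terminal components, which build the membrane attack complex, were lower in 4 of 6 and higher in 0. C9, the pore-forming unit, ran from 6.24 to 6.55 in the foxes against 13.11 on the control, a difference of -6.71 (SE 0.14, adjusted p by limma 1.68e-12). Its 3 probe sets, all called, differed by -3.64, -4.58 and -6.71.

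Soluble regulators were lower in 5 of 7 and higher in 0, against 18.5% and 44.6% of all genes. VTN, vitronectin, which blocks insertion of the attack complex, averaged 6.10 in the foxes against 12.03 on the control, a difference of -5.93 (SE 0.39), though its other probe sets differed by -3.46, -0.71 and 0.87, all called, and with the mean of all 4 the difference was -2.31. CLU, clusterin, a regulator with the same target and a product of many tissues, averaged 7.83 in the foxes against 13.69, a difference of -5.87 (SE 0.69). Foxes 9, 10 and 11 read 8.38 or more in CLU and foxes 1 to 8 read 6.94 to 8.32, so these did not overlap. Of all genes, 14.2% had foxes 9, 10 and 11 above. SERPING1, the inhibitor of C1r and C1s, was the soluble regulator with the second largest SD between foxes, 0.50. It ran from 11.27 to 13.04 in the foxes against 14.31 on the control, a difference of -2.51 (SE 0.48) that was -1.42 after quantile normalization again (adjusted p by limma 0.0333, from 1.35e-05 to 0.0333 over the settings tried). Its other 4 probe sets were also lower in the foxes, with differences of -2.91 to -0.86. The adjusted p by limma was 7.16e-08 for VTN, 2.17e-05 for CLU and 0.00101 for SERPING1. The membrane regulator CD59, which stops C9 from forming pores on host cells, averaged 7.02 in the foxes against 12.73 on the control. The difference was -5.71 (SE 0.43, adjusted p by limma 2.86e-07) on this probe set and -0.53 on its second, also called (adjusted p by limma 0.0128), and with the mean of both it was -3.12.

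Of 6 initiation components 3 were lower in the foxes, 2 higher and 1 not called, against 18.5% lower and 44.6% higher of all genes. Their median was -0.47, against 0.53 over all genes. The largest falls, named after their values were seen, were C2 by -4.63 and C1R by -4.29. C2 averaged 8.71 in the foxes against 13.3 on the control, and C1R 7.04 against 11.3. MASP1, a protease of the lectin route, was higher by 0.76 (7.70 in the foxes against 6.94 on the control, SE 0.21, adjusted p by limma 0.00861). With centred arrays it was not called (0.49, adjusted p by limma 0.0759, from 0.000418 to 0.0765 over the settings tried). Its second probe set differed by 0.94 and was called. On both MASP1 probe sets the foxes and the control lay in the range of the olfactory receptor genes. Of 7 receptors 4 were higher in the foxes, 1 lower and 2 not called, against 44.6% higher and 18.5% lower of all genes, with a median of 0.91 against 0.53. ITGAX, the alpha chain of complement receptor 4, was higher by 0.93 (7.49 against 6.56 on the control), CD93 by 0.91 (7.74 against 6.83) and the second C5a receptor C5AR2 by 0.84 (8.35 against 7.51). SEs were 0.19 for each, and adjusted p-values by limma ran from 0.00151 to 0.00296. These levels lay in the range of the olfactory receptor genes on the foxes and on the control, and the median olfactory receptor gene read 6.88 in the foxes, against 6.02 on the control. The receptor that fell, named after its values were seen, was C1QBP, a mitochondrial protein that also binds C1q, at 9.49 against 10.69 on the control.

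**Figure D4:**
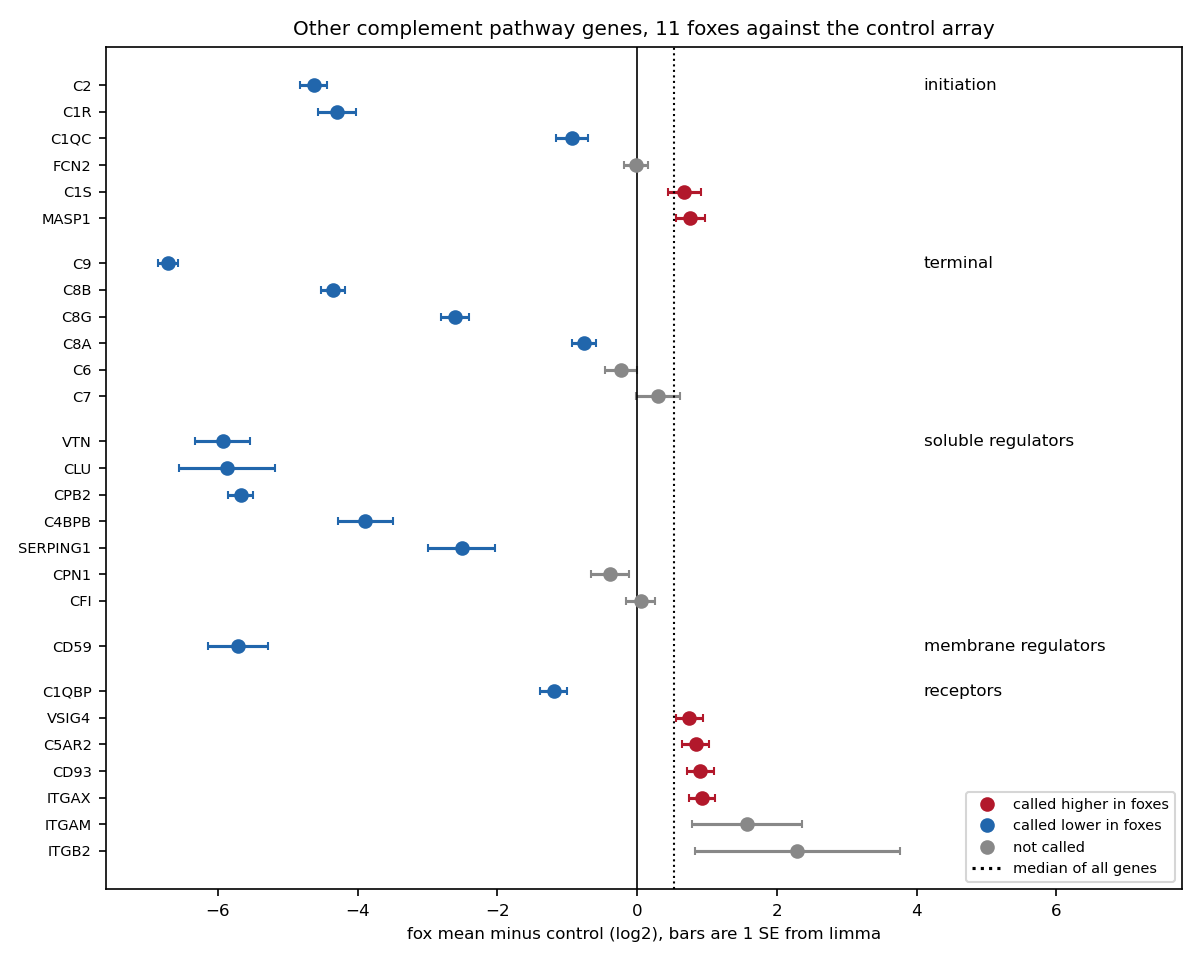
Fox mean minus control in log2 units (horizontal axis) for the 27 measured genes of the pathway list, grouped by role, with bars of 1 SE from limma; the dotted line is the median of all genes at 0.53. Terminal components and soluble regulators reach -6.71 on the left. Of the 7 receptors 6 lie right of 0, as does the median of all genes, and 4 are called higher, against 44.6% of all genes.

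The chains of complement receptor 3, which binds C3 fragments on neutrophils and monocytes, were highest in foxes 9, 10 and 11 on the probe sets read for the genes. ITGB2 read 13.15, 13.40 and 11.63 in foxes 9, 10 and 11 and between 8.96 and 9.90 in foxes 1 to 8, against 8.13 on the control. ITGAM read 9.34, 10.22 and 8.86 in the same foxes and between 7.68 and 8.10 in foxes 1 to 8, against 6.71 on the control. On these probe sets foxes 9, 10 and 11 lay above all of foxes 1 to 8, as for CFD and for 14.2% of all genes. The 3 probe sets of ITGB2 disagreed. One other also had foxes 9, 10 and 11 above, at 7.60 to 8.07 against 7.14 to 7.57 in foxes 1 to 8, and was called higher than the control by 0.86 (SE 0.30, adjusted p by limma 0.0272). The last had them below, at 5.22 to 5.44 against 5.45 to 6.04, and was not called (0.38, adjusted p by limma 0.295). With the mean of all 3 the difference from the control was 1.18 and not called (adjusted p by limma 0.0605). Over all foxes the differences of 2.30 (SE 1.47) for ITGB2 and 1.58 (SE 0.79) for ITGAM were not called (adjusted p by limma 0.188 and 0.0975). Without foxes 9, 10 and 11 both were, at 1.43 and 1.13 (adjusted p by limma 0.0012 and 0.000168), and ITGAM also without fox 10 alone (1.39, adjusted p by limma 0.0368). Over the settings tried the adjusted p ran from 0.0012 to 0.28 for ITGB2 and from 0.000168 to 0.2 for ITGAM.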

How the data were processed

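The authors deposited log2 values from RMA, which corrects background, quantile-normalizes and summarises probes. The submitters' processing notes name RMA and Affymetrix Expression Console without versions, and joint normalization of the 12 arrays is not stated. Gene symbols came from GEO's platform annotation of the array, and no sequences or genome positions were used. After leaving out 111 Affymetrix control probe sets, 42924 were fitted with limma 3.58.1 (lmFit and eBayes) in R 4.3.3, tested on simulated data, and 15115 genes had a probe set with a single symbol. Correlations used exact permutation of 8 foxes. The number of arrays limits the precision. The contrast was planned as control minus foxes and is reported as foxes minus control, which turns the sign alone. The members, gene lists and alternatives were chosen with earlier results of these data known, and so was the setting apart of foxes 9, 10 and 11. Named genes were every member, the 4 pathway genes with the largest called difference in each direction and the 4 with the largest SD, and the 3 genes most like each of the 4 most variable members over foxes 1 to 8. Further genes are said to be named after their values were seen, and markers stand only beside a result. The alternatives were low-level probe sets left out, quantile normalization again, arrays centred on their medians, trend and robust limma settings, a minimum absolute log2 difference of 1, the mean of all probe sets, foxes 9, 10 and 11 left out, and each fox left out.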

Additional observations from a re-analysis of the deposited data

How the results depend on the processing

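The count of member genes lower in the foxes (3) stayed between 2 and 4 and that of pathway genes (14) between 11 and 18 under every alternative run. The count of members higher in the foxes (2) was 1 after quantile normalization again, 0 with arrays centred on their medians, 0 where a minimum absolute log2 difference of 1 was also required, 1 with the mean of all probe sets, and 1 to 3 when each fox was left out. The 6 pathway genes higher in the foxes became 3 after quantile normalization again and 0 with that minimum difference. The median of the liver-made genes (-3.53) was -2.98 after quantile normalization again and -1.80 with the mean of all probe sets. That of the genes made outside the liver (0.61) was 0.34 with centred arrays and 0.93 with the mean of all probe sets. Without foxes 9, 10 and 11, 1 member had an SD of at least 0.5, not 3. The causes were not tested. No direction reversed among the 8 measured members and the 11 pathway genes named by rule. The alternatives were fitted over all probe sets, but directions of other genes were not followed gene by gene. No paired analysis was possible because the labels pair no fox with the single control array.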
